A study of Mus musculus with 6 samples.

Results

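Mitochondria are built by nuclear genes, copy and transcribe their own small genome, join and divide, and clear damaged proteins with proteases of their own. The 37 genes described here encode that machinery, and they were read in the ventral midbrain of mice, on 3 arrays labelled Bach1 knockout and 3 labelled wild type. The genes were taken by name, each through the probe set (a group of probes read as 1 value) that is annotated to that gene alone and has the highest mean level. Of the 37, 35 could be read in this way, out of 22180 genes of the whole series. Mtfr1 and Ucp2 had none and were not analysed through a probe set of their own.

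All 6 samples were total RNA of ventral midbrain, which contains the substantia nigra and the ventral tegmental area, from male mice aged 2 months. The 3 samples of 1 group came from Bach1 knockout mice and the 3 of the other from age matched wild-type mice, and no treatment was given. Strain, the structure of the Bach1 allele and whether each array stands for a separate animal are not given in the labels, so the p-values measure the spread between these arrays, which may be technical. BACH1 represses genes of heme breakdown and antioxidant defence, among them Hmox1, and the comparison asks which transcripts of the region differ when Bach1 is disrupted.

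Mitochondrial biogenesis is the growth of the organelle. The coactivators of the PGC-1 family (Ppargc1a, Ppargc1b, Pprc1) work with the transcription factors NRF1, GABP and ERR-alpha (Esrra) on nuclear genes for mitochondrial proteins. Tfam, Tfb2m and Polrmt transcribe the mitochondrial genome, and Polg, Polg2, Twnk and Ssbp1 copy it. Mfn1, Mfn2 and Opa1 fuse mitochondria, while the GTPase encoded by Dnm1l divides them once receptors on the outer membrane have recruited it. Dopamine neurons of the midbrain have long, branched axons, and loss of mitochondrial quality control is a well known theme in Parkinson disease.

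Promoters of several of these genes hold elements of the factors that other members encode, which is why the stretches below are shown. They come from RefSeq (GRCm38.p6), which gave 42 promoter windows for 34 of the 37 genes, each of 300 bases, 250 before and 50 after a transcription start. The search used CCGGAAGT for GABP and GCGCANGCG for NRF1 on both strands, and the match is in capitals. Tfam, Polg and Twnk stand for upkeep of the mitochondrial genome, and Mfn1 and Fis1 for fusion and fission. Esrra, Gabpb1 and Opa1 carry an NRF1 match. Tfam lies at chr10:71238059-71238116 (minus strand), Polg at chr7:79466279-79466336 (minus), Twnk at chr19:45006422-45006479 (plus), Mfn1 at chr3:32529413-32529470 (plus) and Fis1 at chr5:136953232-136953274 (plus). Esrra lies at chr19:6921916-6921974 (minus), Gabpb1 at chr2:126675774-126675832 (minus) and Opa1 at chr16:29579251-29579309 (plus).
Tfam: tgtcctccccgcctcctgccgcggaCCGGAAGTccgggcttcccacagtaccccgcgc
Polg: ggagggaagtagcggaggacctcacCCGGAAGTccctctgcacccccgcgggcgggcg
Twnk: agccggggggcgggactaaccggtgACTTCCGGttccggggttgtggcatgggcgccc
Mfn1: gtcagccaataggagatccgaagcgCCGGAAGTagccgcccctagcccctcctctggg
Fis1: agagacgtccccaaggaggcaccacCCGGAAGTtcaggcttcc
Esrra: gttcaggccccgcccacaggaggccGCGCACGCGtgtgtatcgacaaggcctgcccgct
Gabpb1: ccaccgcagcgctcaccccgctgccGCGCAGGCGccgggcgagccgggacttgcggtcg
Opa1: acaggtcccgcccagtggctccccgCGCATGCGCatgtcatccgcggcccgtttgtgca
In Tfam the match ends 40 bases before the start, in Mfn1 37, in Polg 31 and in Fis1 11.

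The GABP letters were in 9 of the 42 windows (21.4%), against 3.89% of all 32851 promoter windows of the same length. They belonged to Tfam, Polg, Twnk, Mfn1, Fis1, Mief1, Mul1 and Phb2. The NRF1 letters were in 7 of the 42 (16.7%), against 6.25% of all windows, those of Esrra, Gabpb1, Tfb2m, Polrmt, Opa1, Oma1 and Spg7. The element that BACH1 and NRF2 (here the product of Nfe2l2, not GABP) bind, searched as TGACTCAGC, was in 0 of the 42 windows and in 0.454% of all. Its looser core TGANNNNGC, of which TGACTCAGC is 1 case, was in 17 of the 42 (40.5%) and in 41.3% of all. These matches describe letters in a short window and no test was made of them. The windows used for comparison were not matched to these genes in base composition or expression.

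Facts of the whole series bear on how far these arrays can be read. Medians of the arrays ran from 5.58 to 5.69 on the log2 scale, and correlations between arrays, across probe sets, from 0.984 to 0.989. The probe set for Bach1 itself read 7.59, 7.68 and 7.70 on the knockout-labelled arrays and 7.46, 7.59 and 7.57 on the wild-type arrays, so the targeted gene was not lower and the arrays are called by their labels. A probe set outside a deleted part would check nothing, and the deleted part is not given in the sources used here. Hmox1, a gene that BACH1 represses, read 8.22 to 8.50 against 6.32 to 6.51, a 3.85-fold difference (limma, adjusted p = 0.0181). With any 1 array left out, 0 probe sets of the whole table passed. Markers of dopamine neurons, which define the labelled region, were present on all 6 arrays, with Th at 11.02 to 11.49 and the dopamine transporter gene Slc6a3 at 11.69 to 12.17. Of 7 such markers 6 were higher on the knockout-labelled arrays (median difference 0.17), limma called 0 of 7, and the groups of Aldh1a1 did not overlap (difference 0.26, unadjusted p = 0.026, limma adjusted p = 0.564). The mean deviation of the 7 from wild type ran from -0.013 to 0.30 on knockout-labelled and from -0.12 to 0.10 on wild-type arrays. For 3 striatal markers it ran from -0.49 to -0.23 against -0.36 to 0.22, and for 6 hypothalamus and pituitary markers from -1.18 to -0.63 against -0.62 to 0.82. For 5 endothelial and mural cell markers it ran from -0.19 to -0.033 against -0.028 to 0.039, and for 5 meningeal markers from -0.50 to -0.024 against -0.48 to 0.27. Among the striatal markers Tac1 differed by -0.66 and Pdyn by -0.40, while Drd2 differed by 0.044. The ranges of the marker lists for neurons, astrocytes, oligodendrocytes, microglia, and choroid plexus with ependyma also overlapped between the groups. The part of these marker differences in the values that follow was not tested, and in bulk tissue fewer cells of a type cannot be told apart from less RNA per cell.

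Across the 35 genes the knockout-labelled and wild-type arrays gave nearly the same levels. The differences (knockout-labelled minus wild type, log2) ran from -0.15 to 0.14, with a median of -0.0059, and the farthest from 0 amounted to 1.11-fold. limma, a linear model with variances moderated across all probe sets, called 0 of the 35 at an adjusted p under 0.05 (Benjamini-Hochberg over all probe sets), where it called 0.00726% of all 41345 probe sets. At an unadjusted p under 0.05 it also gave 0 of the 35, against 8.27% of all probe sets. Among the 18801 probe sets with mean levels in the range of the 35 genes, 1040 had such a p. The smallest adjusted p of a member was 0.693.

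The intervals say what size of change these arrays leave room for. For all 35 genes, each read through its brightest probe set, the 95% interval, taken gene by gene, lay inside a 1.5-fold change in either direction. For 34 it lay inside 1.3-fold and for 19 inside 1.2-fold. The exception at 1.3-fold was Mief2, whose interval reached 1.33-fold. The standard error of the difference had a median of 0.0828 over the 35 genes and of 0.129 over all probe sets. The spread within groups had a median SD of 0.0667 over the members, against 0.114 over the 18801 probe sets with mean levels in the members' range of 5.86 to 12.46. The mean of each of the 35 exceeded the 40th percentile over probe sets (5.07), so a filter on dim probe sets removed none. Levels of different probe sets depend on their probes and are not ordered here.

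The signs of such small differences depended on how the arrays were scaled. As deposited, 15 of the 35 were higher and 20 lower on the knockout-labelled arrays. With each array centred on its median the split was 9 higher and 26 lower, and after a further quantile normalization 20 higher and 15 lower. The median difference over all probe sets was 0.0005 as deposited, and it was -0.047 and 0.00071 under these settings.

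**Figure D1:**
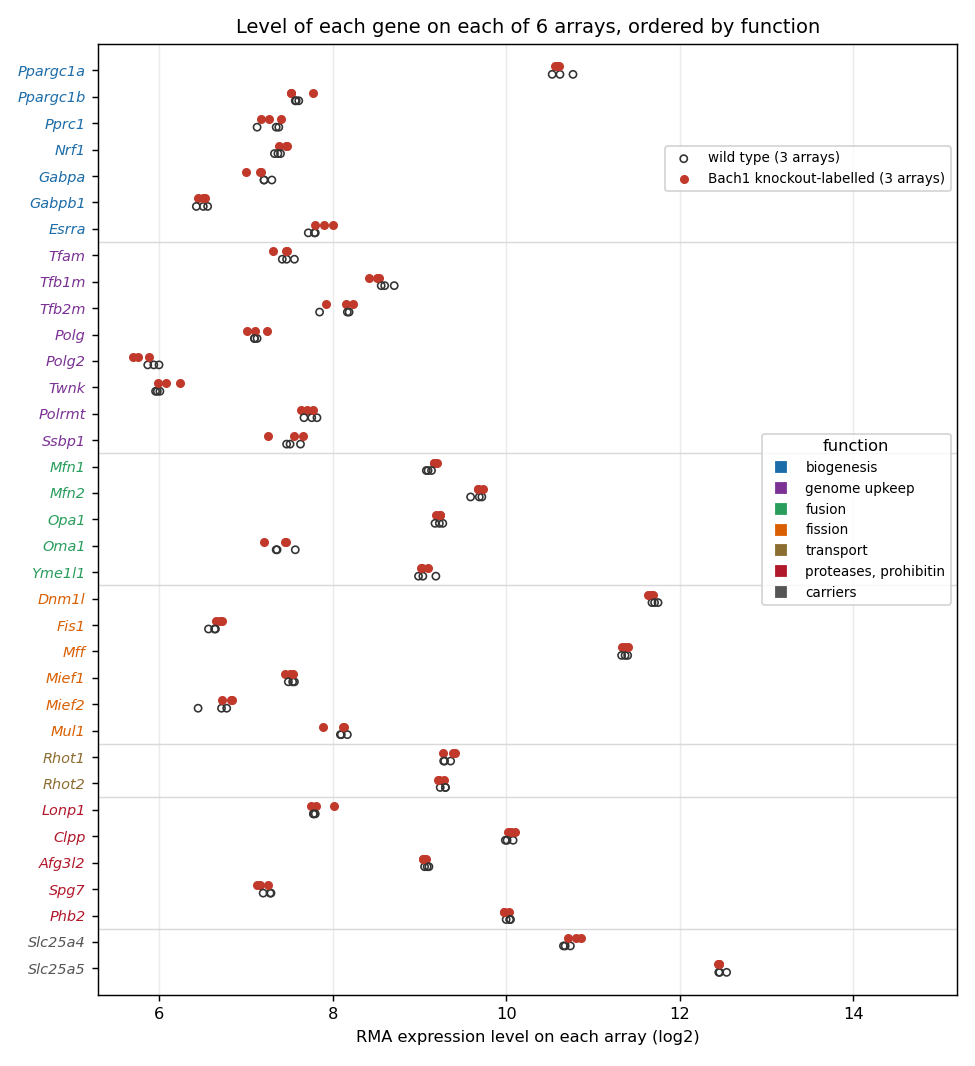
Level of each of the 35 genes on each array (x axis, RMA level, log2; rows, genes in the colour of their function). Filled points are the 3 knockout-labelled arrays and open points the 3 wild-type arrays, and the group means of a row differ most for Polg2, at -0.15. Positions of different rows depend on their probes and carry no order.

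**Figure D2:**
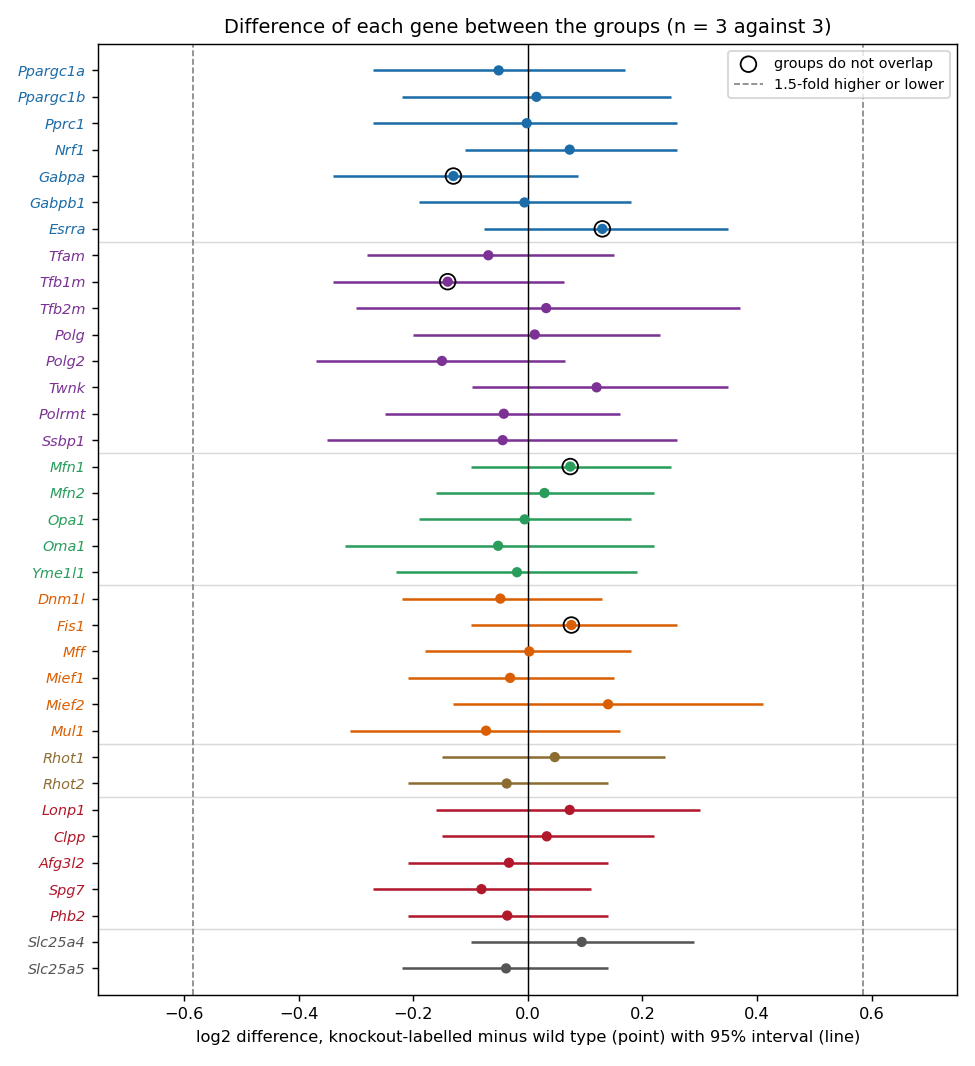
Difference of each gene between the groups (x axis, log2, knockout-labelled minus wild type; 3 against 3 arrays), with points for the fitted difference and lines for the 95% interval. Every interval crosses 0 and stays inside the dashed lines at 1.5-fold, and rings mark the 5 genes whose groups do not overlap.

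In 5 of the 35 genes all arrays of 1 group lay above all of the other, a share of 14.3% against 14.3% of all probe sets. Esrra, Mfn1 and Fis1 separated as higher on the knockout-labelled arrays (3 of 35, against 7.4% of all probe sets) and Gabpa and Tfb1m as lower (2 of 35, against 6.86%). In the members' level range 904 of 18801 probe sets separated as higher and 1824 as lower. A share at the background is no result about these genes. All 5 genes kept their direction under both rescalings, which was likely for genes picked by separation on the same arrays, and the gaps were small. With median centring Esrra, Mfn1 and Fis1 overlapped, and after renewed quantile normalization Gabpa and Tfb1m overlapped.

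Among the regulators of biogenesis, Ppargc1a, the PGC-1 coactivator known for its response to cold, exercise and energy stress, was level. It read 10.56, 10.59 and 10.61 on the knockout-labelled arrays and 10.77, 10.62 and 10.53 on the wild-type arrays. The difference of -0.051 (95% interval -0.27 to 0.17) was smaller than the spread of the wild-type arrays (SD 0.12, n = 3). Its relatives Ppargc1b and Pprc1 differed by 0.015 and -0.002, with intervals of -0.22 to 0.25 and -0.27 to 0.26. For Ppargc1b the knockout-labelled replicate 3 stood at 7.77 while the other 5 arrays lay between 7.52 and 7.61.

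Esrra, which encodes the orphan nuclear receptor ERR-alpha and carries the NRF1 match shown above, had the smallest unadjusted p of the regulators. It read 8.004, 7.898 and 7.801 on the knockout-labelled arrays and 7.718, 7.795 and 7.786 on the wild-type arrays. The groups did not overlap, with a gap of 0.00539 between the nearest arrays. The log2 difference was 0.13 (SE 0.0869, 95% interval -0.076 to 0.35; limma, adjusted p = 0.711). Without knockout-labelled replicate 1 it came to 0.083.

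Gabpa, the DNA-binding subunit of GABP, leaned the other way. It read 7.165, 6.996 and 7.179 against 7.299, 7.206 and 7.212, with a gap of 0.0272. The log2 difference was -0.13 (SE 0.088, 95% interval -0.34 to 0.088; limma, adjusted p = 0.732). Without knockout-labelled replicate 2 it came to -0.067. Gabpa lies on the same chromosome as Bach1, with 10 protein-coding genes between them in the RefSeq order, and Opa1 and Dnm1l are on that chromosome too, with 284 and 434 between. Gabpb1, the subunit that activates transcription, differed by -0.0059 (95% interval -0.19 to 0.18). Nrf1, the activator of many respiratory chain genes, read 7.38, 7.46 and 7.48 against 7.33, 7.37 and 7.40. Its groups overlapped, and the difference was 0.073 with an interval of -0.11 to 0.26.

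Genes with a GABP match in a promoter fell on both sides of 0. Of the 8, 4 were higher and 4 lower, from -0.073 for Mul1 to 0.12 for Twnk, with a median of -0.0095. Of the 7 with an NRF1 match 2 were higher and 5 lower, from -0.081 for Spg7 to 0.13 for Esrra, with a median of -0.0059. Both medians lie close to the -0.0059 of all 35 genes, and single signs among them turned under other scalings. Of the 15 measured genes with the looser BACH1 and NRF2 core, 6 were higher and 9 lower, with a median of -0.0056.

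The genes that keep and transcribe the mitochondrial genome held both the lowest difference of the set and one of the highest. Tfam, which packages mitochondrial DNA and starts its transcription, read 7.31, 7.47 and 7.46 on the knockout-labelled arrays and 7.42, 7.56 and 7.47 on the wild-type arrays. The groups overlapped, and the difference of -0.069 had an interval of -0.28 to 0.15. Polrmt, the mitochondrial RNA polymerase, differed by -0.042 (95% interval -0.25 to 0.16). Tfb2m, which helps that polymerase open the promoter, had 3 probe sets of its own, with differences of 0.032, -0.12 and 0.056 from the brightest to the dimmest. They disagreed in sign, and the widest 95% interval ran from -0.54 to 0.31.

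Tfb1m, a methyltransferase of mitochondrial ribosomal RNA, separated between the groups. It read 8.53, 8.42 and 8.51 on the knockout-labelled arrays and 8.71, 8.56 and 8.60 on the wild-type arrays, a gap of 0.0366 and the widest of the 5. Its log2 difference came to -0.14 (SE 0.0828, 95% interval -0.34 to 0.063; limma, adjusted p = 0.695). It did not pass the test, and it stayed between -0.17 and -0.097 when any 1 array was left out.

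Of the replication genes, Polg2, the accessory subunit of the mitochondrial DNA polymerase, had the smallest unadjusted p of all 35 genes. It read 5.697, 5.890 and 5.764 against 5.996, 5.866 and 5.939, and replicate 2 of the knockout-labelled arrays lay above replicate 2 of the wild-type arrays, so the groups overlapped. The log2 difference was -0.15 (SE 0.089, 95% interval -0.37 to 0.065; limma, adjusted p = 0.693). Polg, the catalytic subunit, differed by 0.012 (95% interval -0.20 to 0.23). The helicase gene Twnk read 6.24, 6.08 and 5.99 against 6.01, 5.98 and 5.96, a difference of 0.12 (95% interval -0.098 to 0.35) that was 0.057 without knockout-labelled replicate 1. A second probe set, shared by Twnk and Mrpl43, differed by -0.096. Ssbp1, whose protein coats single-stranded mitochondrial DNA, had 2 probe sets with differences of -0.044 (95% interval -0.35 to 0.26) and -0.20. The interval of the dimmer one, -0.60 to 0.20, reached 1.51-fold. The brighter one had its lowest value, 7.26, on knockout-labelled replicate 2 and the largest spread within that group of all 35 genes (SD 0.209, n = 3).

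Among the fusion genes Mfn1, a mitofusin of the outer membrane, read 9.17, 9.17 and 9.20 on the knockout-labelled arrays and 9.08, 9.10 and 9.14 on the wild-type arrays. The groups did not overlap, with a gap of 0.0273. The log2 difference was 0.074, or 1.05-fold (SE 0.0723, 95% interval -0.10 to 0.25; limma, adjusted p = 0.806). Mfn2, the other mitofusin, which also tethers mitochondria to the endoplasmic reticulum, differed by 0.029 (95% interval -0.16 to 0.22).

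Opa1, the GTPase that fuses the inner membrane, read 9.19, 9.24 and 9.24 against 9.23, 9.27 and 9.18. The groups overlapped fully, and the difference of -0.0056 had an interval of -0.19 to 0.18, so a change beyond 1.14-fold lay outside it. Oma1 and Yme1l1 encode the proteases that cut OPA1 into its short forms, the first on stress. They differed by -0.052 (95% interval -0.32 to 0.22) and -0.019 (95% interval -0.23 to 0.19). Cleavage of OPA1 is a protein event that these arrays do not read.

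On the fission side, Dnm1l read 11.67, 11.69 and 11.63 on the knockout-labelled arrays and 11.75, 11.68 and 11.71 on the wild-type arrays. The difference of -0.048 had an interval of -0.22 to 0.13, and the groups overlapped. Mff, its main receptor on the outer membrane, differed by 0.0024 (95% interval -0.18 to 0.18), the narrowest room for change of the 35 at 1.13-fold. Fis1, another outer membrane adaptor and the carrier of a GABP match, read 6.70, 6.66 and 6.73 against 6.64, 6.57 and 6.65. Its groups did not overlap, with a gap of 0.0152, and the log2 difference was 0.076 (SE 0.0745, 95% interval -0.10 to 0.26; limma, adjusted p = 0.807).

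Mief1 and Mief2 encode receptors that also bind the DNM1L protein. Mief1 differed by -0.031 (95% interval -0.21 to 0.15). Mief2 had the smallest unadjusted p of the fission genes and read 6.72, 6.84 and 6.83 against 6.72, 6.45 and 6.78. The groups overlapped, and wild-type replicate 2, at 6.45, was the lowest array by far. Its log2 difference of 0.14 (SE 0.112, 95% interval -0.13 to 0.41; limma, adjusted p = 0.76) became 0.042 without that array. Mul1, a ubiquitin ligase of the outer membrane, had 2 probe sets that disagreed in sign, at -0.073 for the brighter and 0.083 for the dimmer, which lay below the 40th percentile of levels. Mtfr1 could be read only through a probe set shared with Plppr1, and that one differed by -0.034 (95% interval -0.28 to 0.22).

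Rhot1 and Rhot2 encode the Miro GTPases, which link mitochondria to motor proteins along axons. Rhot1 had the smaller unadjusted p of the pair and read 9.27, 9.41 and 9.39 on the knockout-labelled arrays and 9.28, 9.36 and 9.29 on the wild-type arrays. This gave a log2 difference of 0.047 (SE 0.0804, 95% interval -0.15 to 0.24; limma, adjusted p = 0.901), which was 0.023 without knockout-labelled replicate 2 and 0.089 without replicate 1. Rhot2 differed by -0.037 (95% interval -0.21 to 0.14). Both pairs of groups overlapped.

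Proteases of the matrix and inner membrane were level as well. Lonp1 and Clpp, which degrade damaged matrix proteins, differed by 0.073 (95% interval -0.16 to 0.30) and 0.033 (95% interval -0.15 to 0.22). For Lonp1 knockout-labelled replicate 3 stood at 8.02, while the other 5 arrays lay between 7.75 and 7.81. Without that array the difference was -0.0058.

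Spg7 and Afg3l2 together form an inner membrane protease of the AAA class, and Spg7, a gene mutated in hereditary spastic paraplegia, had the smallest unadjusted p of the protease genes. It read 7.16, 7.13 and 7.25 against 7.29, 7.20 and 7.28, with overlap. Its log2 difference came to -0.081 (SE 0.0796, 95% interval -0.27 to 0.11; limma, adjusted p = 0.81). Afg3l2 differed by -0.033 with the smallest standard error of the 35 genes, 0.0718. Phb2, the prohibitin that scaffolds the inner membrane and serves as a mitophagy receptor, differed by -0.036 (95% interval -0.21 to 0.14).

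Slc25a4 and Slc25a5 encode adenine nucleotide translocases, which exchange ADP and ATP across the inner membrane. Slc25a4 read 10.80, 10.71 and 10.86 on the knockout-labelled arrays and 10.74, 10.68 and 10.66 on the wild-type arrays. The groups overlapped through knockout-labelled replicate 2 and wild-type replicate 1, and the log2 difference was 0.094 (SE 0.0808, 95% interval -0.10 to 0.29; limma, adjusted p = 0.78), or 0.06 without knockout-labelled replicate 3. Slc25a5 read 12.44, 12.45 and 12.45 against 12.54, 12.46 and 12.45, a difference of -0.038 (95% interval -0.22 to 0.14). The 2 genes are close in sequence, so part of the signal of 1 may come from the other.

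**Figure D3:**
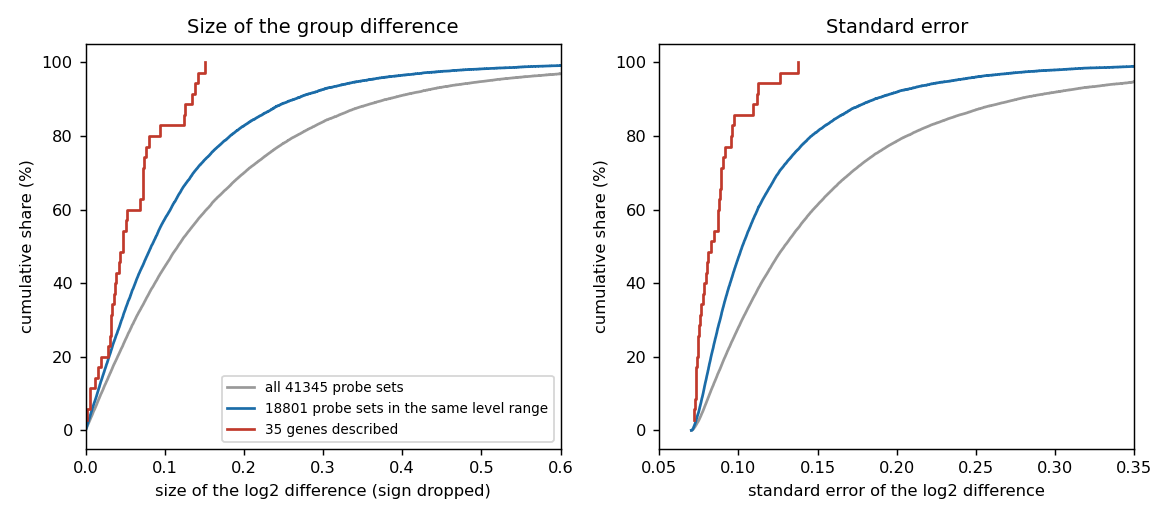
Cumulative share of probe sets (y axis, %) by size of the log2 difference (left) and by its standard error (right), for the 35 genes, for the 18801 probe sets in the same range of levels and for all 41345. The curve of the 35 genes lies to the left in both panels beyond the smallest values, with a median size of 0.047 against 0.083 and 0.12, and these medians are a description with no test.

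On single arrays the set moved little. The mean over the 35 genes of the deviation from the wild-type mean was -0.0059, -0.024 and 0.02 on the knockout-labelled arrays and 0.025, -0.015 and -0.01 on the wild-type arrays. The groups overlapped, and no array stood apart. By function, the largest mean deviations were 0.065 for the 2 carriers and 0.055 for the biogenesis regulators, both on knockout-labelled replicate 3.

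Further genes of the same functions were read from a list of 76 symbols (Phb and Phb1 name the same gene), and 70 could be measured. Of these 70, 31 were higher and 39 lower, with a median difference of -0.018, and limma called 0 of 70 (0.00726% of all probe sets). At an unadjusted p under 0.05 there were 2 of 70, against 8.27% of all probe sets. That count was 0 without knockout-labelled replicate 1 (7.8% of all probe sets) and 5 with median centring (8.27% of all). The groups did not overlap in 13 of 70 (18.6%, against 14.3%). The 95% interval lay inside 1.5-fold for 67 of the 70.

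The 2 at an unadjusted p under 0.05 were Ucp3 and Mterf2. Ucp3, an uncoupling protein of the inner membrane known mainly from muscle, read 6.34, 6.64 and 6.29 on the knockout-labelled arrays and 7.06, 6.78 and 6.70 on the wild-type arrays. The groups did not overlap, and the log2 difference was -0.42 (SE 0.143, 95% interval -0.77 to -0.075; limma, adjusted p = 0.559). Mterf2, of the family that regulates mitochondrial transcription and translation, read 6.57, 6.51 and 6.71 against 7.09, 6.80 and 6.83. Its log2 difference came to -0.31 (SE 0.111, 95% interval -0.58 to -0.043; limma, adjusted p = 0.567). Neither passed over all probe sets.

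Next by p came Tefm, the elongation factor of the mitochondrial RNA polymerase, at -0.31 (limma, 95% interval -0.63 to 0.019, adjusted p = 0.614), with groups that overlapped. Mterf3 followed at -0.17 (limma, 95% interval -0.37 to 0.021, adjusted p = 0.626). Of the 14 further genes for upkeep of the mitochondrial genome 9 were lower and 5 higher. Of the 18801 probe sets in the members' level range 11376 were lower, and in 1824 all knockout-labelled arrays lay below all wild-type arrays. In 5 of the 14 all knockout-labelled arrays lay below all wild-type arrays, against 6.86% of all probe sets. They were Mterf2, Mterf3, Mterf4, the topoisomerase gene Top1mt and Rrm2b, a subunit of ribonucleotide reductase, and the last 3 are named after their values were seen. All 5 were lower under both rescalings, which was likely from the start for genes picked by separation on the same arrays. With median centring all 5 separated, where 10.8% of all probe sets separated as lower. After renewed quantile normalization 3 of them did, against 6.38%. This function was singled out with its values known. Of the 7 further fission genes 3 separated, 2 as higher and 1 as lower. Among the 8 described genes for upkeep of the mitochondrial genome 1 separated, as lower. limma called 0 of the 14, with 1 at an unadjusted p under 0.05, against 8.27% of all probe sets. That count was 4 with median centring, against 8.27% of all probe sets. It was 3 of 13 without dim probe sets (9.08% of the probe sets kept) and 0 without knockout-labelled replicate 1 (7.8% of all).

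Mitophagy genes had 5 measured members between -0.14 and 0.014, with 0 separating, and Pink1, the kinase that marks damaged mitochondria, differed by -0.019. The outer membrane channels Vdac1, Vdac2 and Vdac3 differed by 0.0082, -0.13 and 0.062. The mitochondrial chaperones Hspd1 and Hspa9 differed by -0.038 and 0.071. The axonal transport adaptors Trak1 and Trak2, partners of the Miro GTPases, differed by -0.014 and -0.043. None of these genes passed limma at an adjusted p under 0.05.

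**Figure D4:**
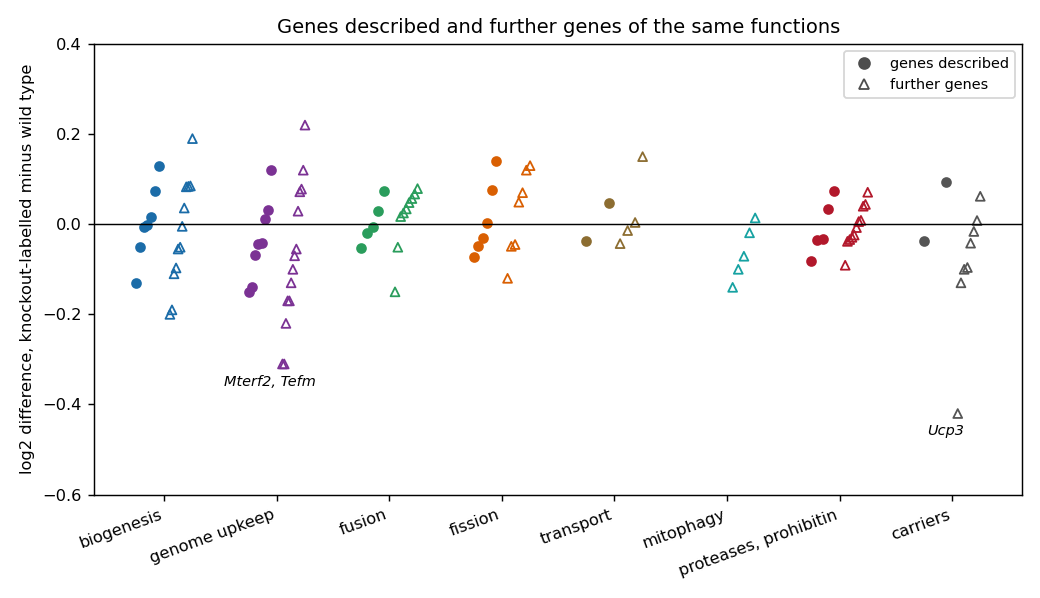
Log2 difference (y axis, knockout-labelled minus wild type) of the 35 genes (filled circles) and of 70 further genes of the same functions (open triangles), by function (x axis). Filled circles stay between -0.15 and 0.14, and the lowest triangles are Ucp3 at -0.42 and Mterf2 and Tefm at -0.31.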

How the data were processed

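The values analysed are the authors' log2 levels of probe sets, deposited with 1 column for each Affymetrix array. RMA produced them, per the submitters' processing notes, with a software version not given in the sources used here. That they are on a log2 scale was read from their range, 0.745 to 14.1. RMA makes the arrays' distributions nearly equal, so a change common to most genes would be removed. The 41345 probe sets were named through the platform annotation, updated by Entrez identifier to RefSeq (GRCm38.p6; 23328 matched): 23521 had 1 gene, 1814 several and 16010 none, and genes were read only from the first kind. Each probe set was fitted with limma 3.58.1 in R 4.3.3 (lmFit, eBayes, prior degrees of freedom 2.21) on all 6 arrays without covariates, with Benjamini-Hochberg adjustment over all probe sets, and the code was tested on simulated data. The number of arrays limits the precision.

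All members are named. In each function the member with the smallest unadjusted p, and each member whose groups do not overlap, is given in full, and of the further genes the 4 with the smallest p. Members and lists were chosen with earlier results of these data known. Alternatives were median centring, renewed quantile normalization, trended and robust variances, no dim probe sets, a replicate block, all probe sets of a gene averaged, and each array left out.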

Additional observations from a re-analysis of the deposited data

How the results depend on the processing

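limma called 0 of the 35 genes and 0 of the 70 further genes under all 12 alternatives, and the smallest adjusted p of a member lay between 0.584 and 0.882 over them. Over the whole table it called 0 probe sets in place of 3 with any 1 array left out and with replicate number as a block. Same-numbered arrays did not deviate together (r = 0.0864, -0.0326 and 0.0395 across probe sets), so the numbers were not taken to pair animals, and the block changed no call of a member. The members' median difference was -0.053 with median centring, where that of all probe sets was -0.047, and -0.029 to 0.014 with 1 array left out. The count of members whose groups do not overlap was 8 to 11 with 1 array left out, where 21.7% to 27.8% of all probe sets did not overlap, since fewer arrays separate more easily.

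Signs held for 18 of the 35 genes under every alternative. Trended and robust variances, the replicate block and the filter on dim probe sets left each difference as it was, so they could turn no sign. Averaging could turn only genes with several probe sets. Median centring turned Ppargc1b (-0.032), Tfb2m (-0.015), Polg (-0.035), Mfn2 (-0.018), Mff (-0.045) and Clpp (-0.014). Renewed quantile normalization turned Pprc1 (0.036), Opa1 (0.027), Yme1l1 (0.012), Mief1 (0.012) and Afg3l2 (0.00044), and averaging probe sets turned Tfb2m (-0.0098) and Mul1 (0.005). With 1 array left out, 14 genes turned: Ppargc1a (-0.10 to 0.014), Ppargc1b (-0.067 to 0.057), Pprc1 (-0.081 to 0.053), Gabpb1 (-0.039 to 0.021), Tfb2m (-0.08 to 0.13), Polg (-0.048 to 0.065), Ssbp1 (-0.13 to 0.073), Mfn2 (-0.01 to 0.055), Opa1 (-0.029 to 0.016), Oma1 (-0.096 to 0.028), Yme1l1 (-0.061 to 0.038), Mff (-0.015 to 0.021), Mul1 (-0.11 to 0.0047) and Lonp1 (-0.0058 to 0.13).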

Other observations

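The mitochondrial genome itself was also on the array. Of its 13 protein genes 10 could be measured, and these were looked up after the nuclear genes had been read. ND1, ND2, ND3, ND4, ND4L, ND5, COX1, COX3 and CYTB, subunits of the respiratory complexes, differed by between -0.032 and 0.063 on the log2 scale. They were among the brightest probe sets, with mean levels from 13.46 to 14.09, where array signals can be compressed. Only ND3 separated between the groups, at 0.063 with a gap of 0.00199 between the nearest arrays. That is 1 of 10 (10%), against 14.3% of all probe sets. limma called 0 of the 10, with 0 at an unadjusted p under 0.05.

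ND6, the protein gene read from the opposite strand of that genome, was the exception in spread. It read 8.32, 10.13 and 8.56 on the knockout-labelled arrays and 8.38, 8.27 and 8.23 on the wild-type arrays. The difference of 0.71 (limma, 95% interval -0.42 to 1.83, adjusted p = 0.715) rested on knockout-labelled replicate 2. On that array the lowest of the other 9 read 13.48.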
